A study of Mus musculus with 6 samples.

Results

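The intracellular lipases and their regulators were 9 genes out of 21959 in the expression table: Pnpla2, Lipe, Mgll, Abhd5, G0s2, Pnpla3, Ces1d, Ces1f and Lipa. They were taken by symbol, each symbol had 1 row, and the rule itself used no measured value. Transcripts were counted in samples labelled as full-thickness dorsal skin from male C57BL/6 mice, 7 weeks old, whose back had been shaved in telogen, the resting phase of the hair cycle. A group of 3 mice received the vehicle (30% dipropylene glycol and 70% water) on the skin each day for 7 days, and a group of 3 mice received 3% rebamipide in that vehicle, a quinolinone compound used as a gastric mucosal protectant. The study asked how rebamipide acts in hair regeneration and examined lipid breakdown in the skin, and the lipases carry out that breakdown.

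Fat cells store triglyceride in a lipid droplet and release fatty acids from it in steps. Adipose triglyceride lipase (ATGL, encoded by Pnpla2) removes the first fatty acid, hormone-sensitive lipase (HSL, Lipe) acts on the diglyceride that is left, and monoglyceride lipase (Mgll) frees the last fatty acid and glycerol. ATGL needs the coactivator CGI-58 (Abhd5), which perilipin 1 on the droplet holds back until protein kinase A is active, and ATGL is inhibited by G0S2 and by HILPDA. Around this cascade stand PNPLA3, a relative of ATGL, the carboxylesterases of the endoplasmic reticulum encoded by Ces1d and Ces1f, and lysosomal acid lipase (Lipa), which hydrolyses lipid delivered to the lysosome. In skin, the dermal white adipose layer lies under the hair follicles and changes its size with the hair cycle.

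The libraries held 32709801 to 39915276 counts. TMM factors, which rescale a library when a few genes take many of its reads, were 1.21 to 1.279 in the vehicle group and 0.7464 to 0.9286 in the rebamipide group. Marker counts put the labelled tissue in question for the rebamipide libraries. Krt14, the keratin of basal keratinocytes, had 26099, 64371 and 59493 counts with vehicle and 10954, 6102 and 0 counts with rebamipide. The 5 markers of the growing hair follicle summed to 2190, 884 and 19.6 CPM (TMM-normalized counts scaled to a common library size) with vehicle and 70.6, 0.39 and 0 CPM with rebamipide, so these groups overlapped. Vehicle libraries 1 and 2 thus held markers of growing follicles although the mice were described as in telogen, and vehicle library 3 held few. Krt31 of that list had 32113, 11808 and 190 counts in the vehicle libraries. Ucp1, the uncoupling protein of brown adipocytes, had 0 counts in each vehicle library and 81048 to 220449 counts in the rebamipide libraries. In rebamipide library 3 Krt15, Dsg1a, Flg and Ivl, further genes that define the epidermis, also had 0 counts and Krt5 had 4. A difference in the tissue sampled and a response to rebamipide cannot be told apart in these libraries, and each fold change below compares the libraries as labelled. In bulk tissue, fewer cells of a type and less RNA per cell cannot be told apart, and the same holds for more of either.

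Sequences upstream of the transcription start were read for the genes of the ATGL step, namely the lipase, its inhibitor and its coactivator, because the transcripts of all of them were higher in the rebamipide libraries. They are the 250 bases before the start in RefSeq (GRCm38.p6), printed 5′ to 3′ on the strand of the gene. Capitals mark the GC box, GGGCGG on either strand (CCGCCC on the printed strand where reversed).
Pnpla2, chr7:141454938-141455187, plus strand: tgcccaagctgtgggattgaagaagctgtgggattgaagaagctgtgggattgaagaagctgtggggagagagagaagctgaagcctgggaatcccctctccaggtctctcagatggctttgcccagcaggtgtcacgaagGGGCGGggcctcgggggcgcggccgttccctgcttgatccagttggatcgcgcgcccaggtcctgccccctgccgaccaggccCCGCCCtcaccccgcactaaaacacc
G0s2, chr1:193273189-193273438, minus strand: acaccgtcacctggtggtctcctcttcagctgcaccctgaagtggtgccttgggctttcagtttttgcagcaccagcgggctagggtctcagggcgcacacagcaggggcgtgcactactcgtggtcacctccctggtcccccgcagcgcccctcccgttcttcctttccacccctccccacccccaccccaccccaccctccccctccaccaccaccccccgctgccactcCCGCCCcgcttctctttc
Abhd5, chr9:122351366-122351615, plus strand: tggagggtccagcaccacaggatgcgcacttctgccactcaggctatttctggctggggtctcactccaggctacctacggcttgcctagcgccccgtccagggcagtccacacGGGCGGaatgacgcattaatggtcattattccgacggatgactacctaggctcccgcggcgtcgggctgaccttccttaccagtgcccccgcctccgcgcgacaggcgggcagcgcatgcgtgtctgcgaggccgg
The Pnpla2 window held GC boxes 109 and 26 bases before the start, the G0s2 window held 1 at 18 bases and the Abhd5 window held 1 at 136 bases. These windows had GC contents of 63.2%, 67.2% and 64.8%, against a median of 52.4% over 32851 promoters. RefSeq windows were matched for 7 of the 9 genes, and these had 9 windows, since Lipe and Mgll have 2 starts each. Ces1d and Ces1f had no entry. A GC box lay in 6 of the 9 windows, from Abhd5, G0s2, Lipe, Mgll, Pnpla2 and Pnpla3, and in 32.7% of all promoters. The other motifs were searched on both strands. The E-box CACGTG was in 1 window each of Lipe and Mgll (6.02% of all promoters), the cAMP response element TGACGTCA was in the Pnpla3 window 46 bases before the start (1.55%), CCAAT was in the Lipa and Pnpla3 windows (33.8%) and TATAAA in the Lipa window (12.4%). The direct repeat of AGGTCA spaced by 1 base, the kind of site that PPAR receptors bind (0.0335%), and the C/EBP palindrome TTGCGCAA (0.164%) were in none of the 9 windows. A match describes the letters and no binding was measured.

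All 3 enzymes of the cascade had more normalized reads in each rebamipide library than in any vehicle library. Pnpla2 (ENSMUSG00000025509, chromosome 7, 141035111 to 141040656 in GRCm39, plus strand) had 118, 190.5 and 335 CPM with vehicle and 1975, 3473 and 4109 CPM with rebamipide. Its lowest rebamipide library stood 5.90 times above its highest vehicle library. The gene rose by 3.89 on the log2 scale (SE, the standard error, 0.55, 14.9-fold, adjusted p = 0.0106 in edgeR's quasi-likelihood test with Benjamini-Hochberg adjustment over all genes tested), which placed it at percentile 99.2 of the log2 fold changes of all tested genes. Lipe (ENSMUSG00000003123, chromosome 7, 25078952 to 25098135, minus strand) had 63.7, 84.7 and 133 CPM with vehicle and 619, 797 and 922 CPM with rebamipide. It rose by 3.05 on the log2 scale (SE 0.37, 8.30-fold, adjusted p = 0.00957, edgeR), again with no overlap between the groups.

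Mgll, the last enzyme of the cascade, did not pass the test. The gene (ENSMUSG00000033174, chromosome 6, 88701394 to 88805342, plus strand) had 245, 389 and 667 CPM with vehicle and 931, 1324 and 1430 CPM with rebamipide. The lowest rebamipide library was 1.40 times the highest vehicle library, so the groups did not overlap, but the vehicle libraries themselves spanned 2.72-fold. The size of this gap depended on the scaling. In the deposited FPKM, scaled by library total, the same libraries stood at 170.2 and 158.9. The log2 fold change was 1.501 (SE 0.43, 2.83-fold, unadjusted p = 0.0122, adjusted p = 0.0548, edgeR). DESeq2 gave an adjusted p of 0.0074 for the same gene, so its call depends on the tool. It also passed in edgeR without vehicle library 3 (adjusted p = 0.0329) and without rebamipide library 1 (0.0495).

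Of the regulators of ATGL, the inhibitor G0s2 and the coactivator Abhd5 both rose. G0s2 (ENSMUSG00000009633, chromosome 1, 192954469 to 192955525, minus strand) had 13.3, 21.5 and 25.6 CPM with vehicle and 100.4, 167 and 286 CPM with rebamipide. It rose by 3.19 on the log2 scale (SE 0.47, 9.15-fold, adjusted p = 0.0117, edgeR), and its rebamipide libraries differed among themselves by more than those of any other of the 9 genes, with a coefficient of variation of 50.9%. Abhd5 (ENSMUSG00000032540, chromosome 9, 122180673 to 122210589, plus strand) had 65.8, 80.6 and 95.0 CPM with vehicle and 133, 237 and 202 CPM with rebamipide. Its rise of 1.24 on the log2 scale (SE 0.28, 2.37-fold, adjusted p = 0.0306, edgeR) was the smallest of the 9 genes, and the lowest rebamipide library was 1.40 times the highest vehicle library. In the deposited FPKM, scaled by library total, these libraries were closer, at 20.69 and 19.28. The Abhd5 call was lost with total counts alone as the scaling (log2 fold change 0.60, adjusted p = 0.0719, edgeR), and its direction stayed the same. It was also lost without vehicle library 1 (adjusted p = 0.0701, edgeR) and without rebamipide library 3 (0.079).

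Hilpda, the other known inhibitor of ATGL, had 6.11, 9.46 and 19.3 CPM with vehicle and 9.75, 8.14 and 6.98 CPM with rebamipide, and the groups overlapped. Its log2 fold change of -0.49 did not pass (SE 0.46, adjusted p = 0.453, edgeR).

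**Figure D1:**
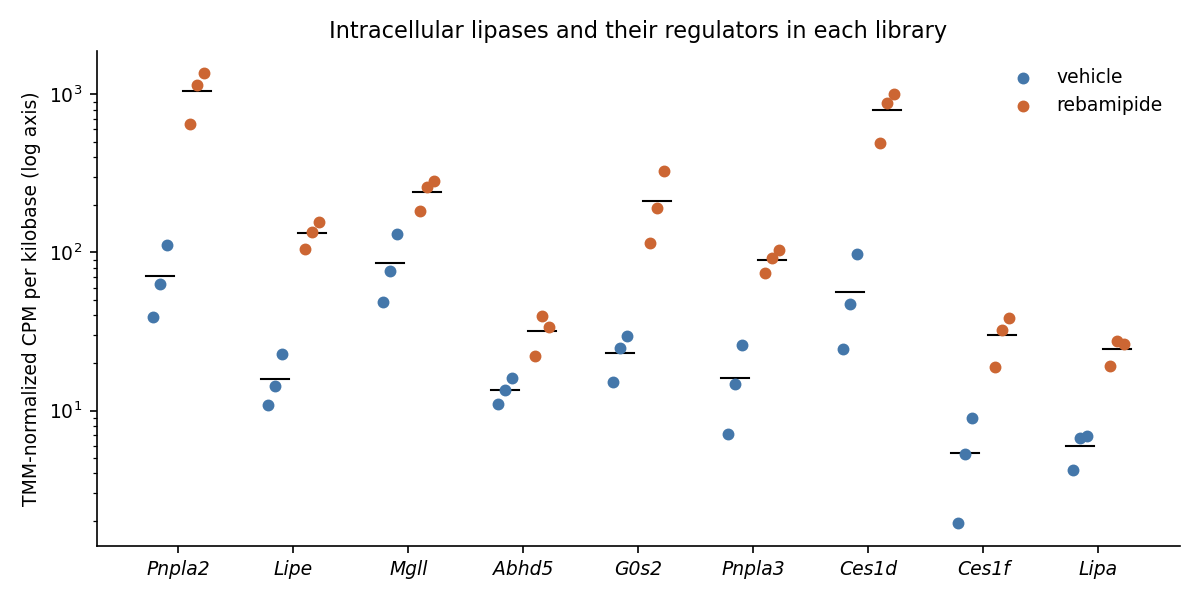
TMM-normalized CPM per kilobase of gene length (log axis) of the 9 genes, with 1 point per library, vehicle in blue and rebamipide in orange, and a bar at the mean of the 3 libraries of a group. In every gene all 3 rebamipide points lie above all 3 vehicle points, with a wide gap for Pnpla2 and Ces1d and a narrow one for Mgll and Abhd5.

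The esterases outside the canonical cascade also rose. Ces1d (ENSMUSG00000056973, chromosome 8, 93892696 to 93924466, minus strand), which encodes a triglyceride hydrolase known from adipocytes and liver, had 58.3, 112 and 232 CPM with vehicle and 1173, 2102 and 2370 CPM with rebamipide. It rose by 3.81 on the log2 scale (SE 0.63, 14.0-fold, adjusted p = 0.0139, edgeR), a fold close to that of Pnpla2. Ces1f (ENSMUSG00000031725, chromosome 8, 93982864 to 94006375, minus strand), its neighbour in the same gene cluster, had 6.37, 17.5 and 29.6 CPM with vehicle and 62.2, 106 and 127 CPM with rebamipide. It rose by 2.47 (SE 0.59, 5.53-fold, adjusted p = 0.0356, edgeR), and its vehicle libraries spanned 4.64-fold, the widest span of the 9 genes.

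Ces1d and Ces1f belong to a family of similar genes whose reads can be split between copies. Of the 31-base words of the Ces1d transcripts 6.34% also occurred in transcripts of 47 related lipase and esterase genes, most often in Ces1b, and for Ces1f the share was 2.81%. The other Ces1 genes in the table held few reads. Ces1a, Ces1b, Ces1c, Ces1e, Ces1g and Ces1h had 0 to 13 counts in each library, named here after their values were seen, against 2911 to 62091 counts for Ces1d.

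Pnpla3 and Lipa rose as well. Pnpla3 (ENSMUSG00000041653, chromosome 15, 84052038 to 84071437, plus strand), a relative of Pnpla2 that binds CGI-58, had 11.0, 22.8 and 40.4 CPM with vehicle and 114, 143 and 160 CPM with rebamipide, and rose by 2.49 on the log2 scale (SE 0.49, 5.62-fold, adjusted p = 0.0211, edgeR). Lipa (ENSMUSG00000024781, chromosome 19, 34469718 to 34504874, minus strand) had 28.5, 45.8 and 47.0 CPM with vehicle and 130, 188 and 180 CPM with rebamipide, and rose by 2.04 (SE 0.28, 4.10-fold, adjusted p = 0.0103, edgeR). Lipa had the steadiest rebamipide libraries after Pnpla3, with a coefficient of variation of 18.7% against 16.8%. Macrophages also use lysosomal acid lipase, and beside this rise the 8 macrophage markers summed to 548 to 1260 CPM with vehicle and 303 to 1140 CPM with rebamipide, with 0 of the 8 past the test in edgeR, 1 at an unadjusted p under 0.05 and 1 called lower by DESeq2.

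In edgeR 8 of the 9 genes rose and 0 fell, with a median log2 fold change of 2.49, and in all 9 the groups did not overlap. Of all genes 14875 were tested, of which 14.1% were called higher and 6.51% lower, and the median log2 fold change was -0.17. The groups lay apart in the same way, with the rebamipide libraries on top, in 24.5% of the tested genes. All 9 genes passed the filter on low counts. At an unadjusted p under 0.05 edgeR had 9 higher and 0 lower. DESeq2 called all 9 higher and 0 lower, against 18.3% higher and 17.0% lower of the genes it tested. The edgeR calls depended on single libraries. Without vehicle library 2, or without rebamipide library 2, none of the 9 passed, with adjusted p-values of 0.0747 to 0.138 for the 8 called genes in the first case and 0.0573 to 0.118 in the second. The log2 fold changes there were 3.77 and 3.83 for Pnpla2, 2.94 and 3.04 for Lipe and 3.20 and 3.27 for G0s2. With vehicle library 2 and then rebamipide library 2 left out in turn, edgeR called 0 and 1 genes of the whole table higher, while 4116 and 4062 genes had an unadjusted p under 0.05. DESeq2 called 8 and 9 of the 9 genes with the same libraries left out in turn. Without vehicle library 1 edgeR called 7 of the 9 higher and without rebamipide library 3 it called 6. Without vehicle library 3, the highest of its group, the log2 fold change of Ces1d was 4.46 in place of 3.81, and those of Pnpla3 and Ces1f were each 3.04. With total counts alone as the scaling, the log2 fold changes of the 9 genes were 0.60 to 3.25, with Pnpla2 at 3.25, Lipe at 2.43 and Mgll at 0.87, and the median of all genes was -0.78.

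**Figure D2:**
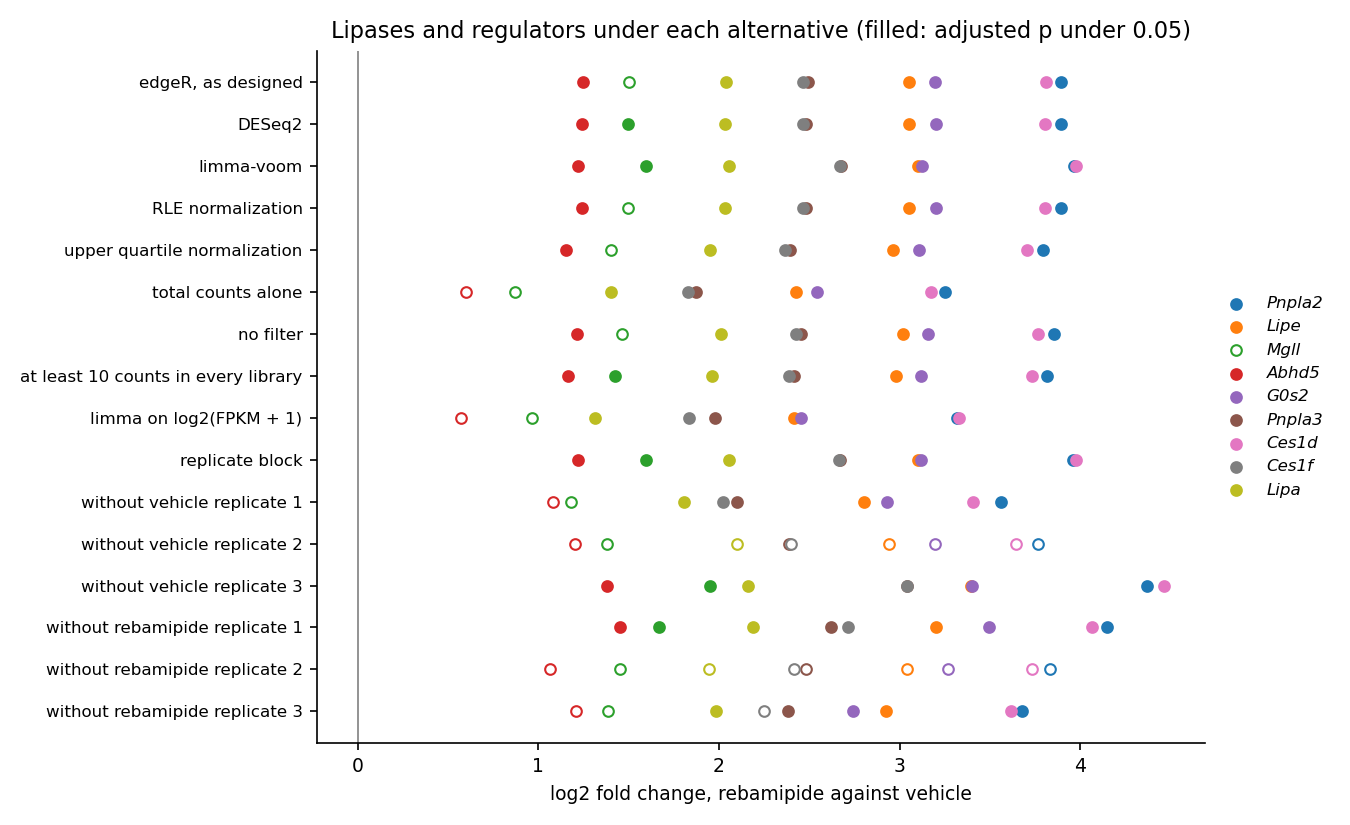
Log2 fold change of the 9 genes (horizontal axis, rebamipide against vehicle) in each fit (rows), with a filled point where the adjusted p was under 0.05 and an open point where it was not. All points lie to the right of 0, and all are open without vehicle replicate 2 and without rebamipide replicate 2.

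Rebamipide library 3 had 0 Krt14 counts, and the directions of all 9 genes were the same without it. Rebamipide libraries 1 and 2 also had 81048 and 220449 Ucp1 counts, against 0 in each vehicle library. Leaving out library 3 therefore does not remove the difference in tissue markers. Without rebamipide library 3 the log2 fold changes of Pnpla2, Lipe and G0s2 were 3.68, 2.92 and 2.74 (adjusted p = 0.0249, 0.0222 and 0.023, edgeR), and 6 of the 9 genes were called higher, with Abhd5 at an adjusted p of 0.079 and Ces1f at 0.0746 no longer called. Within the vehicle group, library 1 was lowest and library 3 highest in 9 of the 9 genes. Within the rebamipide group, library 1 was lowest in all 9, and library 3 was highest except for Abhd5 and Lipa, whose highest library was 2. Over the 6 libraries the 36 pairs of these genes had Pearson correlations of log2 CPM from 0.945 to 0.998, a description that holds the difference between the groups as well as the shared order of the libraries.

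The order of levels among the 9 genes differed between the groups. On the scale of CPM per kilobase, which allows genes to be compared, Mgll led with vehicle at 85.4 ± 42.2 (SD, n = 3), ahead of Pnpla2 at 71.0 ± 36.6 and Ces1d at 56.6 ± 37.6. With rebamipide Pnpla2 led at 1055 ± 363, followed by Ces1d at 794 ± 265, Mgll at 242 ± 51.9 and G0s2 at 212 ± 108. The levels of the other 5 genes lay between 5.42 and 15.97 with vehicle and between 24.5 and 132 with rebamipide. Neighbours in these orders mostly overlapped between libraries. With vehicle only Abhd5 and Lipa, whose means differed 2.27-fold, were neighbours without overlap, and with rebamipide these were Ces1d and Mgll (3.28-fold), Lipe and Pnpla3 (1.47-fold) and Pnpla3 and Abhd5 (2.80-fold).

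The summed level of the 9 genes was 162, 266 and 450 CPM per kilobase with vehicle and 1687, 2818 and 3330 with rebamipide. Pnpla2 made up 24.0%, 23.7% and 24.6% of the sum with vehicle and 38.8%, 40.8% and 40.9% with rebamipide. The share of Mgll went the other way, from 28.8% to 29.8% with vehicle to between 8.46% and 10.9% with rebamipide. Ces1d held 15.2% to 21.8% of the sum with vehicle and 29.4% to 31.5% with rebamipide. In each of these 3 genes the shares of the groups did not overlap.

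The ratio of a lipase to its activator or inhibitor within a library does not depend on how libraries are scaled against each other. The ratio of Pnpla2 to its inhibitor G0s2, from counts per length, was 2.56, 2.55 and 3.76 with vehicle and 5.67, 6.00 and 4.15 with rebamipide. It was higher in each rebamipide library, and the difference was 0.84 on the log2 scale (SE 0.25, 1.79-fold). The ratio of the coactivator Abhd5 to the inhibitor G0s2 went down, from 0.725, 0.548 and 0.542 to 0.193, 0.208 and 0.104 (difference -1.90, SE 0.35). Abhd5 was also lower relative to Pnpla2, with 0.284, 0.215 and 0.144 coactivator transcripts per lipase transcript with vehicle and 0.0341, 0.0346 and 0.025 with rebamipide (difference -2.74, SE 0.32). Activator and inhibitor transcripts therefore did not divide by direction, since the coactivator and G0s2 both rose, while Hilpda did not pass the test.

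Against Hilpda, whose groups overlapped, the Pnpla2 ratio was 7.02, 7.34 and 6.33 with vehicle and 73.9, 155 and 214 with rebamipide (difference 4.29 on the log2 scale, SE 0.46). Along the cascade the ratio of each enzyme to the one before it was lower with rebamipide. The ratio of Lipe to Pnpla2 was 0.278, 0.228 and 0.204 with vehicle and 0.161, 0.118 and 0.115 with rebamipide (difference -0.86, SE 0.20). The ratio of Mgll to Lipe was 4.46, 5.33 and 5.80 with vehicle and 1.74, 1.93 and 1.80 with rebamipide (difference -1.51, SE 0.12). For each of these 6 ratios the groups did not overlap, and the exact permutation test, two-sided, returned p = 0.1 and an adjusted value of 0.1 over the 6. With 3 libraries a group that is the lowest value possible, so none could pass the threshold. The direction of the 6 ratios was the same in each of the 8 alternatives, including each library left out.

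**Figure D3:**
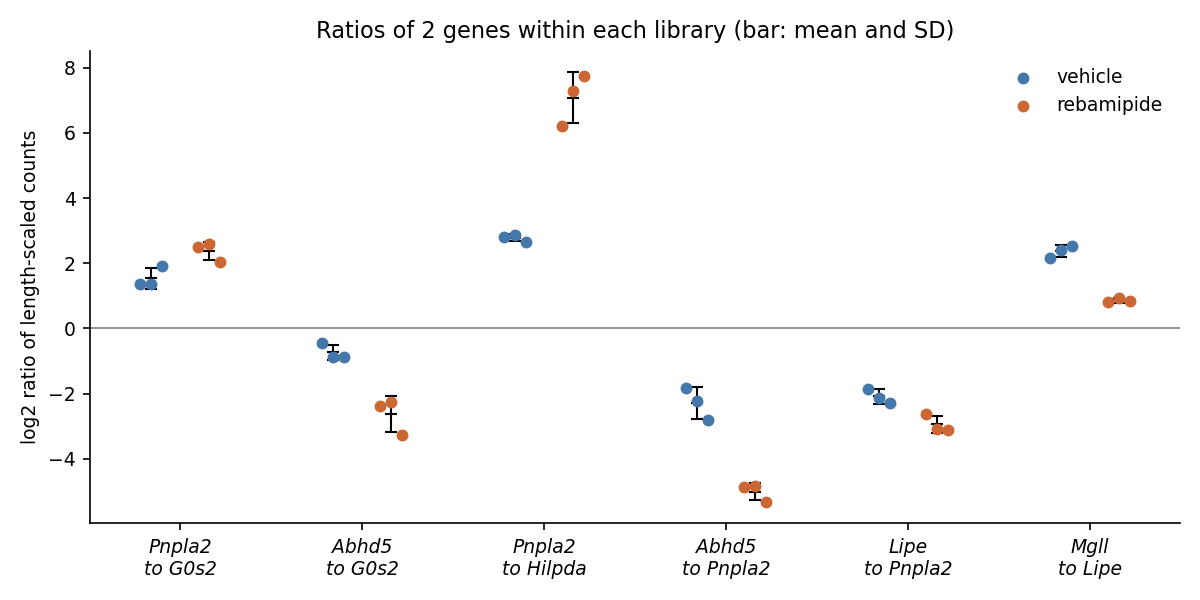
Log2 ratio of length-scaled counts for 6 pairs of genes within each library (vertical axis), vehicle in blue and rebamipide in orange, with the mean and SD of the 3 libraries of a group in black. The groups are apart in all 6 pairs, upward for Pnpla2 to G0s2 and Pnpla2 to Hilpda and downward for the other 4.

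General adipocyte genes were higher as well, so the 9 genes were also set against Plin1, the gene of the droplet coat protein perilipin 1, and Adipoq, which encodes the hormone adiponectin. Plin1 itself rose from 207 ± 122 to 1265 ± 338 CPM (log2 fold change 2.61, adjusted p = 0.0226, edgeR), and Adipoq rose by 2.05 on the log2 scale (adjusted p = 0.0308, edgeR). Relative to Plin1 only Pnpla2 and Ces1d of the 9 were higher without overlap between the groups, by 1.20 (SE 0.16, 2.30-fold) and 1.21 (SE 0.15, 2.32-fold) on the log2 scale. Of all 14874 genes set against Plin1 in this way 1.08% were higher. Lipe, G0s2, Pnpla3, Ces1f and Lipa overlapped between the groups, with differences of 0.34, 0.36, -0.09, -0.09 and -0.70. Mgll and Abhd5 were lower relative to Plin1, by differences of -1.16 (SE 0.14) and -1.54 (SE 0.42), as were 91.0% of all genes.

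Relative to Adipoq, Pnpla2 (difference 1.79 on the log2 scale, 3.47-fold) and Ces1d (1.81, 3.50-fold) were again higher without overlap. They were joined by Lipe (0.94, 1.92-fold), G0s2 (0.95, 1.94-fold) and Pnpla3 (0.51, 1.42-fold), where 2.26% of all genes were higher. Mgll and Abhd5 were again lower, by differences of -0.57 and -0.94, as were 82.8% of all genes, and Ces1f and Lipa overlapped. Over the 18 ratios 7 were higher without overlap, 4 lower and 7 overlapped, and the exact permutation test, adjusted over the 18, gave 0.164 to 0.8, with 0.1 the smallest unadjusted p that 3 against 3 libraries allow. A reading against a white adipocyte gene depends on which gene is chosen, since Lep, Cfd and Retn, also adipocyte markers, had log2 fold changes of -0.53, 0.34 and -0.23 and were not called.

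**Figure D4:**
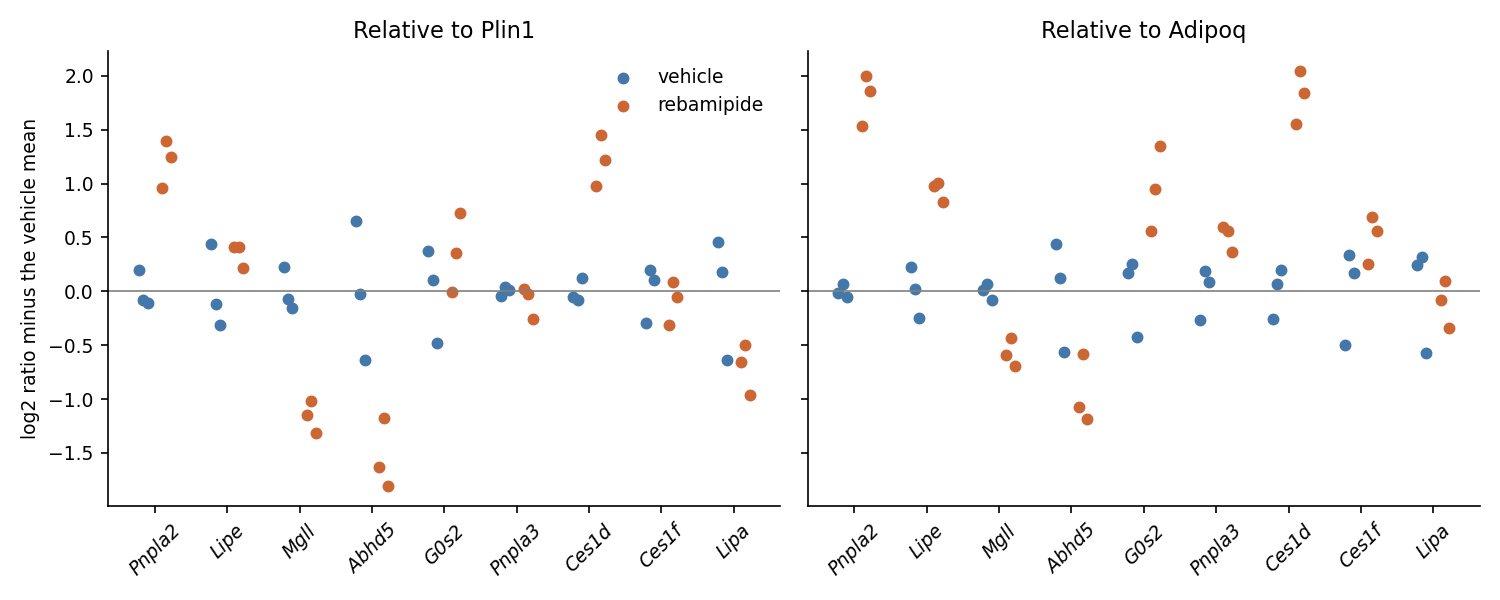
Log2 ratio of each of the 9 genes to Plin1 (left) and to Adipoq (right) in each library, with the vehicle mean of that ratio set to 0, vehicle in blue and rebamipide in orange. Pnpla2 and Ces1d lie above the vehicle points in both panels, Mgll and Abhd5 lie below them, and the vehicle points of Abhd5 spread over more than 1 log2 unit relative to Plin1.

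Genes that control lipolysis mostly rose with the lipases. Of 41 genes for receptors, cAMP signalling, droplet proteins and transcription factors of lipolysis, none of them among the 9, 26 rose, 0 fell and 15 did not pass the test in edgeR, against 14.1% higher and 6.51% lower of all genes tested, and the median of their log2 fold changes was 2.03. Neither DESeq2 nor an unadjusted p under 0.05 had any of the 41 lower, at 27 and 29 higher. Without vehicle library 2 or rebamipide library 2 edgeR called 0 of the 41, as for the 9 genes, and the same held for the pathway and hydrolase lists that follow. Among droplet proteins, Plin5, which binds ATGL and CGI-58 on droplets of oxidative cells, had 30, 77 and 106 counts with vehicle and 2798, 4318 and 5546 counts with rebamipide (log2 fold change 6.73, SE 0.66, adjusted p = 0.00939, edgeR). It was the largest change of the 41. Cidea and Cidec, droplet proteins that promote droplet fusion, rose by 6.23 and 2.40 (adjusted p = 0.00939 and 0.028, edgeR).

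Some genes of the steps from receptor to kinase rose. Adrb1, the β1-adrenergic receptor, rose from 1.42 ± 0.25 to 24.1 ± 9.87 CPM, and the adenylyl cyclase genes Adcy3 and Adcy6 rose by 4.20 and 2.88 on the log2 scale (adjusted p = 0.0104 and 0.0106, edgeR). Prkaca, a catalytic subunit of protein kinase A, rose from 95.7 ± 6.87 to 502 ± 131 CPM (log2 fold change 2.39, adjusted p = 0.00939, edgeR), with vehicle libraries that differed little. Prkar2b, a regulatory subunit of this kinase, rose by 4.31 (adjusted p = 0.0113, edgeR). Prkacb, also catalytic, and Prkar1a, also regulatory, had log2 fold changes of 0.64 and 0.51 and did not pass (adjusted p = 0.0843 and 0.15, edgeR). Prkar2b, Prkacb and Prkar1a were named after their values were seen. Adora1, an inhibitory adenosine receptor, rose by 4.20 and Pde3b, which breaks down cAMP, by 3.11 (adjusted p = 0.0115 and 0.0372, edgeR), both named after their values were seen. Of other genes known to act against lipolysis, picked in the same way, Hcar1, Akt2 and Irs2 rose by 2.98, 1.87 and 1.89 (adjusted p = 0.0123, 0.0107 and 0.0379, edgeR), while Hcar2, Ptger3, Gnai1 and Gnai2 had log2 fold changes of -0.50, -0.43, -0.05 and 0.09 and did not pass. Ptger4, which encodes the prostaglandin receptor EP4 that the study examined, had a log2 fold change of -0.54 with overlapping groups (adjusted p = 0.294, edgeR), also named after its values were seen.

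For the products of lipolysis, Aqp7, the glycerol channel of adipocytes, rose from 13.3 ± 4.98 to 357 ± 144 CPM (log2 fold change 4.74, adjusted p = 0.00939, edgeR). Fabp4, the fatty acid carrier of adipocytes, and Ppara, a nuclear receptor for fatty acids, rose by 3.31 and 5.17 (adjusted p = 0.0116 and 0.00939, edgeR). On the scale of CPM per kilobase averaged over both groups, Cidea (1224), Fabp4 (1056) and Cidec (313) had the highest levels of the 41 genes.

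**Figure D5:**
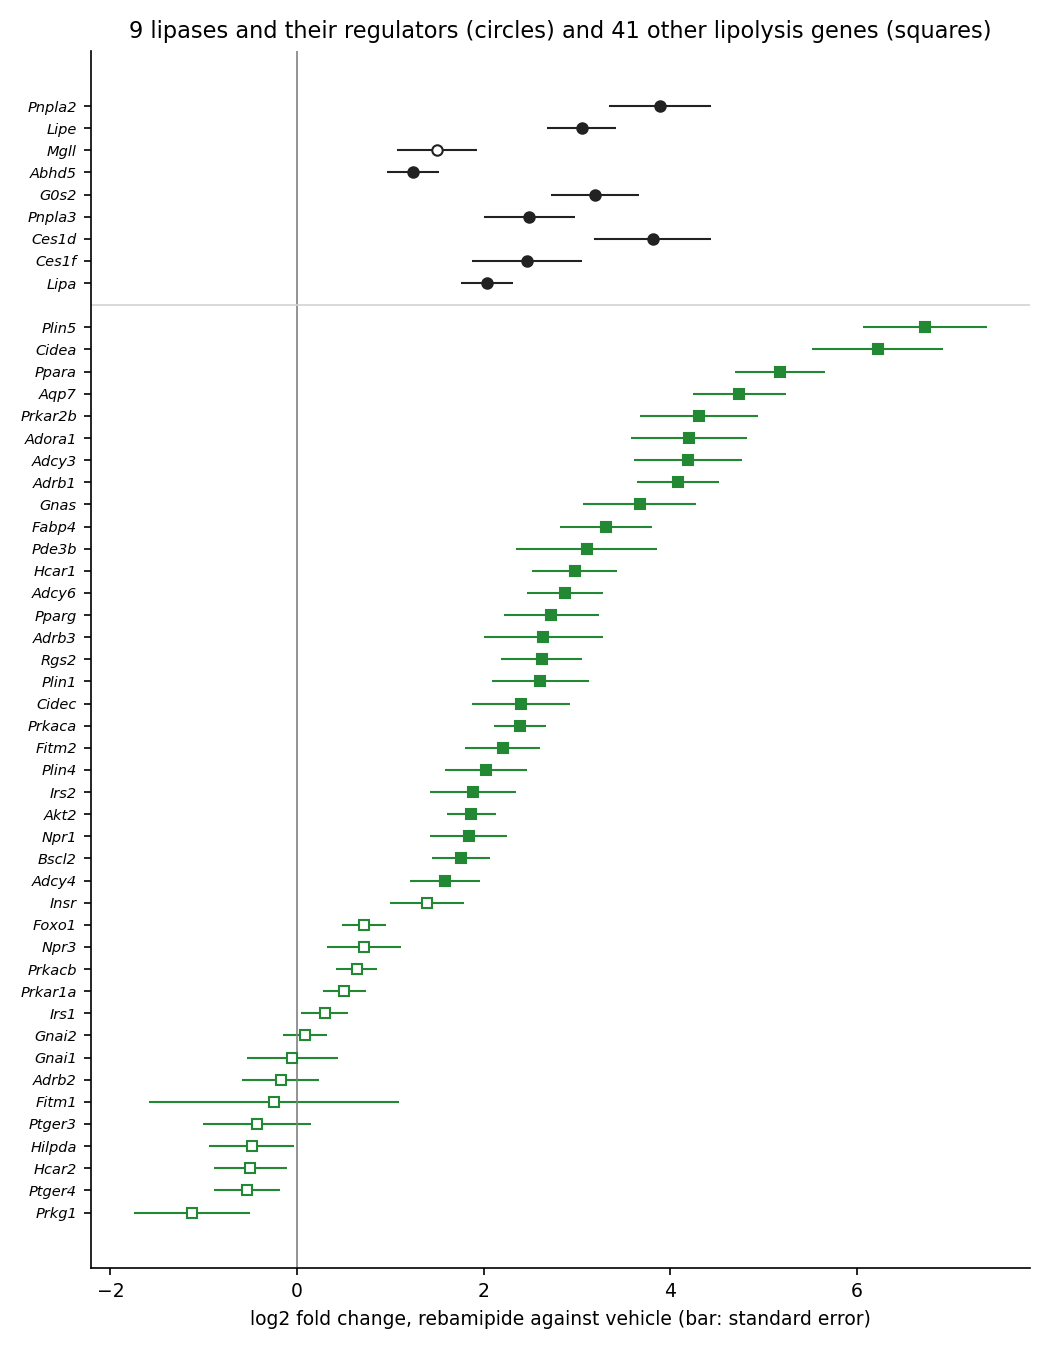
Log2 fold change of the 9 genes (circles) and of the 41 other lipolysis genes (squares), with the standard error as a bar and filled symbols where edgeR's adjusted p was under 0.05. The 9 genes lie between 1.24 and 3.89 and the other genes between -1.12 and 6.73.

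The KEGG pathway for regulation of lipolysis in adipocytes, as annotated in the table, held 56 genes, of which 49 were tested and 4 belong to the 9. Of the 49 genes 21 rose, 2 fell and 26 did not pass, at a median of 0.64 on the log2 scale, against 14.1% higher and 6.51% lower of all genes. The count of 2 was 7 with DESeq2, 8 with total counts alone and 9 with limma on log2(FPKM + 1). By p-value the first 6 genes were Aqp7, Adrb1, Prkaca, Lipe and Adcy3, which rose, and Gnai3, an inhibitory G protein subunit, which had 175, 181 and 183 CPM with vehicle and 36.0, 58.2 and 40.1 CPM with rebamipide. Gnai3 fell by 2.00 on the log2 scale (SE 0.24, adjusted p = 0.00939, edgeR).

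Of 37 other hydrolases of neutral and related lipids, phosphatidate phosphatases among them, 26 were tested. Of these 6 rose, 1 fell and 19 did not pass, and their median was -0.33 on the log2 scale. Of all genes tested 14.1% were higher and 6.51% lower, so these counts are given as a description. The count of 1 lower was 3 with DESeq2, 4 with total counts alone and 10 with limma on log2(FPKM + 1). Dagla, a diacylglycerol lipase of the endocannabinoid pathway, and Ddhd2, a triglyceride hydrolase best known from neurons, rose by 2.88 and 3.32 (adjusted p = 0.00953 and 0.0105, edgeR). Ddhd1, Abhd6 and Abhd16a rose by 2.11, 1.90 and 0.69. Of the phosphatidate phosphatases, which make diglyceride, Lpin1 rose from 98.5 ± 53.5 to 597 ± 171 CPM (adjusted p = 0.0222, edgeR) and Lpin3 fell by 2.54 on the log2 scale (adjusted p = 0.0302, edgeR), a call that limma-voom did not make. Lpin2, named after its values were seen, had a log2 fold change of -0.20 with overlapping groups (adjusted p = 0.549, edgeR).

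Lipoprotein lipase (Lpl), which acts outside the cell and had the highest level of this list, went from 724 ± 235 to 2925 ± 1665 CPM and did not pass (adjusted p = 0.0598, edgeR). Abhd12 had a log2 fold change of 0.38 and did not pass. The lipases known from the epidermis that are named here did not pass. Lipm had 51.9, 47.9 and 42.6 CPM with vehicle and 7.77, 6.00 and 0 CPM with rebamipide (adjusted p = 0.125, edgeR), and Pnpla1, a relative of Pnpla2 that makes ceramides of the skin barrier, had 35.1, 37.7 and 23.3 CPM with vehicle and 8.10, 5.81 and 0 CPM with rebamipide (adjusted p = 0.181, edgeR). Lipn, of the same epidermal cluster as Lipm, was at 0.721 to 6.52 CPM with vehicle and at 0 to 0.39 CPM with rebamipide (adjusted p = 0.0694, edgeR). Lipk, also of that cluster, had 4.31, 21.3 and 22.9 CPM with vehicle and 4.35, 4.83 and 0 CPM with rebamipide, with overlapping groups (adjusted p = 0.251, edgeR). Lipm, Pnpla1, Lipn and Lipk lie outside the rule for named genes and were picked with their values known. The 11 genes that were not tested, most of them of the Ces family, had at most 13 counts in a library.

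Markers of several cell types moved with the lipases, and their part in the result was not tested. The 10 adipocyte markers summed to 1800 to 5430 CPM with vehicle and 11600 to 21400 CPM with rebamipide, and 7 of the 10 rose. The 8 brown adipocyte markers summed to 186 to 338 CPM with vehicle and 4570 to 12400 CPM with rebamipide, and 5 of the 8 rose. Elovl3, another of the 8, had a log2 fold change of -1.45 (adjusted p = 0.0575, edgeR). The 7 basal keratinocyte markers summed to 2510 to 4050 CPM with vehicle and 144 to 1180 CPM with rebamipide, the 7 suprabasal markers to 1070 to 5090 and 2.37 to 1220 CPM, and the 6 sebaceous gland markers to 626 to 2110 and 8.78 to 479 CPM, and Mc5r of the sebaceous list was the only one that edgeR called lower. At an unadjusted p under 0.05 edgeR had 2, 0 and 2 genes of the 3 lists lower, and DESeq2 called 2, 0 and 3.

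Other cell types were also unevenly spread. The 5 endothelial markers summed to 197 to 434 CPM with vehicle and 973 to 1430 CPM with rebamipide (4 of 5 rose), the 5 red cell markers to 42.4 to 200 and 345 to 809 CPM (3 of 5 rose), and the 6 slow muscle markers to 2.07 to 13.5 and 7.02 to 290 CPM (4 of 6 called higher by edgeR and 0 by limma-voom). The 6 fibroblast markers and the 7 fast muscle markers ranged from 12000 to 17700 and from 5050 to 25100 CPM with vehicle, and from 1850 to 15100 and from 257 to 32000 CPM with rebamipide, with 0 called by edgeR in each list (at an unadjusted p under 0.05, 2 and 0 lower, and by DESeq2 2 and 0 lower). For Ces1d and Ces1f, which are known from liver, the 5 hepatocyte markers summed to 1.86 to 9.66 CPM with vehicle and 1.22 to 6.03 CPM with rebamipide, and Alb, the albumin gene, had 6 to 388 counts in a library. Apoa1 and Ttr had at most 4 counts, and Apoa2, with 0 to 21 counts, was called higher.

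The genes whose log2 CPM followed Pnpla2 most closely over the 6 libraries were Mesd, Ndufa1, Atp5mpl, Slc25a23 and Aifm2, with Pearson correlations of 0.9993 to 0.9998. Those closest to G0s2 were Xylt2, Dnajc4, Ccni, Kank3 and Kcns3, at 0.9989 to 0.9994. These 10 genes had log2 fold changes from 0.81 to 3.86, so a close correlation did not require a change of the same size. The correlations include the difference between the groups and are given as a description, with 6 points that share their libraries.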

How the data were processed

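RNA-seq libraries of poly-A RNA from 3 vehicle-treated and 3 rebamipide-treated mice were analysed. The authors deposited whole-number read counts per gene, which are not normalized, and FPKM, which equal the counts divided by gene length and library total (largest relative difference 5.11e-13 percent over 71060 values). Processing notes of the submitters name fastp 0.22.0, HISAT2 2.1.0, HTSeq 0.9.1 and GRCm39, without their roles. Whether counting used strand is not given in the sources used here. Every per-sample column names its library. Replicates of a group were far from identical (chi-square of 79.08 to 713.6 per degree of freedom between 2 libraries). They came from separate mice.

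Groups were compared on 14875 genes in R 4.3.3 with edgeR 4.0.16 (TMM, filterByExpr, quasi-likelihood test, Benjamini-Hochberg adjustment, threshold 0.05). The SE of an edgeR log2 fold change is approximate. It was derived as the absolute log2 fold change divided by the square root of the quasi-likelihood F statistic. Levels between genes used TMM-normalized CPM per kilobase. Ratios within a library used counts per length with 0.5 added to each count, and two-sided exact permutation tests. A count of 0 allows up to 3 counts (0.0752 to 0.0917 CPM before TMM, counting error only). Promoters came from RefSeq GRCm38.p6 and transcript words from GENCODE M21, which was not mixed with the table's positions. On simulated counts of 14790 genes with 200 changed 4-fold, edgeR recovered 93.5% with 6 false calls, DESeq2 92.5% with 17 and limma-voom 92.5% with 12. The simulation gave all genes the same spread between mice, and few genes changed. In the data edgeR called 2093 genes higher and 968 lower. The simulated rates are therefore not error rates of the calls given here. Alternatives were DESeq2 1.42.0, limma-voom (limma 3.58.1), RLE, upper quartile and total count scaling, no filter, at least 10 counts in every library, limma on log2(FPKM + 1), a replicate block, the study's thresholds and each library left out. The 9 genes and the gene lists were chosen with earlier results of these data known. Named were the 9 genes, up to 8 genes with the smallest p and 3 with the highest level per length of the regulator and hydrolase lists, 6 of the KEGG pathway, the ratio partners, the 5 genes most correlated with Pnpla2 and with G0s2, and marker genes. Other genes are marked as named after their values were seen.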

Additional observations from a re-analysis of the deposited data

How the results depend on the processing

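No log2 fold change of the 9 genes changed sign in the 15 alternatives of edgeR and other tools, and their edgeR fits with each library left out span 0 to 9 genes called higher. Fold changes moved by over 1.5 times for all 9 with total counts alone (log2 fold changes of Pnpla2 3.25, Lipe 2.43, Mgll 0.87, G0s2 2.54, Pnpla3 1.87, Ces1d 3.17, Ces1f 1.83 and Lipa 1.40), for 5 with log2(FPKM + 1) (G0s2 2.45, Lipe 2.42, Ces1f 1.83, Lipa 1.31 and Abhd5) and for Ces1d without vehicle library 3 (4.46). The 0 came without vehicle library 2 and without rebamipide library 2, and the cause was not tested. With each library left out, DESeq2 called 8 or 9. Under the other settings 7 to 9 were called, with 7 for total counts alone and for limma on log2(FPKM + 1). Mgll passed with DESeq2, limma-voom, at least 10 counts in every library and the replicate block, and without vehicle library 3 or rebamipide library 1 (adjusted p = 0.0074 to 0.0495). Abhd5 missed it with total counts alone and FPKM (log2 fold changes of 0.60 and 0.57, adjusted p = 0.0719 and 0.0574) and without 4 libraries in turn. Deviations of same-numbered libraries had correlations of -0.0164, -0.0382 and 0.00316, against -0.323 to 0.379 for libraries of unlike number. With so few libraries this does not settle whether replicate numbers paired the mice. With a replicate block 9 of the 9 genes, 1432 of all genes higher and 1 KEGG pathway gene lower were called. All genes called higher were 1258 with total counts alone. All genes called lower were 2534 with DESeq2, 3752 with total counts alone, 1512 with at least 10 counts, 4809 with log2(FPKM + 1) and 2161 at the study's thresholds. The median log2 fold change of all genes moved from -0.17 to -0.78 with total counts alone. Other hydrolases called lower were 3 with DESeq2, 0 with limma-voom, 4 with total counts alone, 10 with FPKM and 3 at the study's thresholds. KEGG pathway genes called lower were 7 with DESeq2, 1 with limma-voom and with no filter, 8 with total counts alone, 4 with at least 10 counts, 9 with FPKM and 5 at the study's thresholds. With each library left out in turn, all genes called higher ranged from 0 to 2810 and lower from 0 to 1971, regulators higher from 0 to 29, other hydrolases higher from 0 to 7 and lower from 0 to 3, and KEGG pathway genes higher from 0 to 24 and lower from 0 to 5. The 6 ratios of lipases and regulators kept their direction in 8 of 8 alternatives each. Hilpda, at 183 to 902 counts in a library, did not pass, and its vehicle libraries ran from 6.11 to 19.3 CPM. Whether depth limited the calls of genes with few reads was not tested.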
